A study of Mus musculus with 18 samples.

Results

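The proximal tubule is the first segment of the nephron, and its cells take back most of the sugar, amino acids, phosphate and water that the glomerulus filters. They do so with membrane transporters: sodium-coupled carriers on the brush border bring solutes into the cell, and carriers on the basolateral side hand them to the blood. A second group of carriers works in the opposite sense and secretes organic anions, organic cations and drugs into the urine, and the receptors megalin and cubilin retrieve filtered protein by endocytosis. The genes described here are 39 such transporters and receptors, taken by gene symbol from the array's probe annotation. The array held 35 of them on 37 spots, among 15095 named genes and 20218 features (a gene, or a spot without a single symbol). Slc34a3, Slc17a3, Slc6a18 and Slc26a1 had no spot and were not analysed here. Slc1a1 and Lrp2 had 2 spots each, which were averaged.

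RNA from whole kidney, whole brain and whole liver of 2 inbred mouse strains, DBA/2J (written DBA2/J in the sample labels) and C57BL/6J, was compared on 18 two-colour glass arrays, 6 for each tissue. Each array set a DBA/2J pool, labelled with Alexa Fluor 647, against a C57BL/6J pool labelled with Alexa Fluor 555. A pool held RNA of 10 mice for kidney and brain and of 9 mice for liver, and every array of a tissue drew on the same pools. The sources used here name no genetic change, treatment, age or sex of the mice. The dyes were not swapped, so a difference between the dyes cannot be told apart from a difference between the strains. All p-values measure the spread between hybridisations of 1 pair of pools and not the spread between mice.

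Values are log2 ratios of DBA/2J over C57BL/6J, so a value above 0 means more RNA in DBA/2J. No file states that direction, so it is a likely one, taken from the order in which the labels give the channels, and 4 genes with known strain alleles lay on the side it gives. Glo1, duplicated in DBA/2J, had a kidney mean of 0.84 ± 0.33 (SD, n = 6 arrays), H2-Ea, whose promoter is deleted in C57BL/6J, 0.88 ± 0.36, and Nnt, partly deleted in C57BL/6J, 0.49 ± 0.54. Hc, a null allele in DBA/2J, had -0.30 ± 0.08 in kidney and -1.08 ± 0.50 in liver. The labels describe the deposited ratios as normalised, but their array medians lay between -1.65 and 0.16. They were therefore normalised here by print-tip loess, a smooth curve fitted within each print block of the array against spot brightness, and tested with limma against a mean of 0. A gene is called higher or lower where its Benjamini-Hochberg adjusted p over all 20218 features was under 0.05.

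Most of the spots ranked brightest in kidney, the tissue that the genes are known for. Ranked by brightness, estimated from the ratios, among all features of a tissue, the 35 genes had a median percentile of 88.2 in kidney, 53.2 in liver and 41.0 in brain. The percentile was highest in kidney for 23 of the 35, against 30.0% of all features. Lrp2 stood at percentile 96.9 in kidney, 22.8 in brain and 21.9 in liver, and Cubn at 93.4, 8.73 and 18.7. Among the 12 genes with a higher percentile elsewhere were Slc5a2 and Slc22a6, whose spots lay between percentile 98.6 and 99.5 in all 3 tissues, and Slco1a1, at percentile 93.1 or above in each. Whether these spots report the named genes, in kidney as elsewhere, was not tested.

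**Figure D1:**
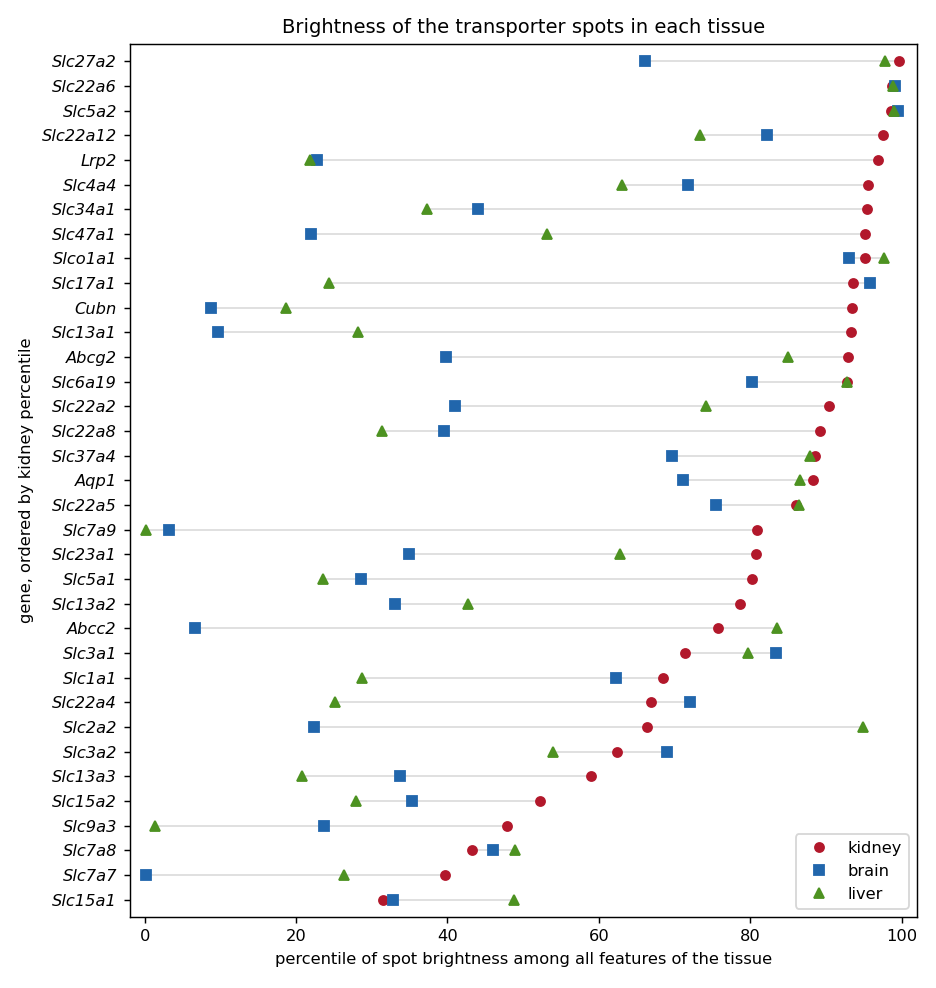
Percentile of spot brightness among all features of a tissue (horizontal axis) for each of the 35 genes, in kidney (circles), brain (squares) and liver (triangles). Most genes are brightest in kidney, with a median percentile of 88.2 against 41.0 in brain and 53.2 in liver, while Slc5a2 and Slc22a6 are bright in all 3 tissues.

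In kidney 15 of the 35 genes were called (42.9%), beside 36.3% of all features. Called genes were found in every role except that of the endocytic receptors. DBA/2J kidney was higher for 9 genes (25.7%, against 18.1% of all features) and lower for 6 (17.1%, against 18.2%). Without loess the split became 27 higher and 4 lower, while 6468 of all 20218 features were called higher and 6645 lower. The median of the 35 means was 0.06, next to 0.01 over all features, and 0.49 without loess. The sizes were mostly small, and 3 genes passed 1.5-fold (8.57%, against 3.71% of all features): Slc34a1, Slc15a2 and Slc13a3.

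The lowest and the highest of the called genes with 1 entry in the promoter table of RefSeq (build GRCm38.p6) are shown with the 250 bases before their annotated start, 5′ to 3′ on the strand of the gene. The capitals mark the letters GTTAAT or ATTAAC, the half-site bound by HNF1 factors, which are transcription factors of the proximal tubule. Both strands were searched, also for TATAA or TTATA, the core of a TATA box, which none of the 4 windows held. All 4 windows come from that 1 build, and whether they differ between the mouse strains was not tested. The windows lie at chr13:55399398-55399647 (plus strand) for Slc34a1, chr16:36784963-36785212 (minus strand) for Slc15a2, chr2:165473198-165473447 (minus strand) for Slc13a3 and chr6:55336049-55336298 (plus strand) for Aqp1.
Slc34a1: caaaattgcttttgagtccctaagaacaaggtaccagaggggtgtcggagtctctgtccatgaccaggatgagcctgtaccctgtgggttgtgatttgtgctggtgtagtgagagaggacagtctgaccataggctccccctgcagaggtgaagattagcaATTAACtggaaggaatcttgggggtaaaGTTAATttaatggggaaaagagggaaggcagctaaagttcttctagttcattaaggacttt
Slc15a2: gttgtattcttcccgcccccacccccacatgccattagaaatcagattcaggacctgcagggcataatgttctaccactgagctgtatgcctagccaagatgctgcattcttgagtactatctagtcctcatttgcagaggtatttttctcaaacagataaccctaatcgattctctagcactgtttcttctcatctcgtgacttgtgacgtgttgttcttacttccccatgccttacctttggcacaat
Slc13a3: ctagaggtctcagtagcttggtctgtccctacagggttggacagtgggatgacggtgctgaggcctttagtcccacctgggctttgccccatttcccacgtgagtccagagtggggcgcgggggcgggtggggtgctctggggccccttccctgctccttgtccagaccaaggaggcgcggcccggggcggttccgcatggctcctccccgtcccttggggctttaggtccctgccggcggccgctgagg
Aqp1: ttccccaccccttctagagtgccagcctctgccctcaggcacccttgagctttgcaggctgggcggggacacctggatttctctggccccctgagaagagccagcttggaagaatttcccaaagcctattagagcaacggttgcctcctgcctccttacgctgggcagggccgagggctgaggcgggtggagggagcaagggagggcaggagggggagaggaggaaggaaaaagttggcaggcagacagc
The Slc34a1 window held the half-site at 2 places, starting 89 and 61 bases before the start. The half-site was found in 4 of 42 promoters of the transporter genes (9.52%), those of Slc34a1, Slc22a6, Slc22a8 and Slc7a7, and in 6.43% of all 32851 promoters of the table. The TATA letters were found in 7 of the 42 (16.7%) and in 22.8% of all promoters. The 42 entries belong to 31 of the 35 genes.

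Slc34a1, the brush border sodium-phosphate cotransporter that carries most renal phosphate reabsorption, had the lowest kidney ratio of the group. It ran from -1.25 through a median of -1.13 to -1.08 over the 6 arrays, with a mean of -1.14 ± 0.06 (SD, n = 6), a 2.21-fold lower signal in DBA/2J (limma, adjusted p = 2.86e-08). All 6 arrays lay within a narrow band, and 0.321% of all features had a lower mean. The size depended on the normalisation and was -0.26 without loess (adjusted p = 0.0256). Slc17a1, an organic anion carrier first described as a phosphate transporter, ran from -0.52 to 0.20 with a mean of -0.09 and was not called (adjusted p = 0.438).

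Among the glucose and vitamin C genes, Slc5a2 and Slc23a1 were higher in DBA/2J kidney. Slc5a2, the carrier that reabsorbs most filtered glucose, ran from 0.04 through 0.28 to 0.61, with a mean of 0.32 ± 0.21 (1.25-fold, adjusted p = 0.00624). Slc23a1, the vitamin C carrier of the brush border, ran from 0.21 through 0.33 to 0.45, with a mean of 0.34 ± 0.10 (1.26-fold, adjusted p = 0.00132). Every array lay above 0 for both genes, the lowest of Slc5a2 being array 6. The Slc5a2 spot was as bright in brain and liver as in kidney, and whether it reports that gene was not tested. Slc5a1, the high-affinity glucose carrier of the later segment, had a mean of 0.16 (adjusted p = 0.0759). Slc2a2, the basolateral glucose exit, had 0.19 (0.131) and Slc37a4, the glucose-6-phosphate carrier of the endoplasmic reticulum, 0.12 (0.183); none of these 3 was called.

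The organic cation and carnitine genes were mixed. Slc22a2, the basolateral cation uptake carrier, ran from -0.42 through 0.38 to 0.68, with a mean of 0.30 ± 0.38 (adjusted p = 0.0469), and array 3 alone lay below 0. Slc22a4, an ergothioneine and cation carrier, ran from -0.61 through -0.22 to 0.03, with a mean of -0.27 ± 0.22 (adjusted p = 0.0188), and array 1 alone lay above 0. Both calls were fragile: that of Slc22a2 was lost when any 1 array other than array 3 was left out, and with whole-array loess (0.19, adjusted p = 0.39), and Slc22a4 turned to 0.49 (adjusted p = 0.00185) where the brightness used for loess was left as the reduced ratio gives it. Slc22a5, the carnitine carrier, had a mean of 0.03, and Slc47a1, which exports cations into the urine, 0.12.

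The organic anion genes held 3 higher and 1 lower call among 6 genes. Slco1a1, an organic anion carrier, ran from 0.19 through 0.35 to 0.56, with a mean of 0.36 ± 0.12 (1.29-fold, adjusted p = 0.000992), above 0 on every array. Slc22a6 and Slc22a8, the neighbouring basolateral uptake carriers for organic anions, were both slightly higher. Slc22a6 ran from 0.05 through 0.18 to 0.30, with a mean of 0.17 ± 0.10 (adjusted p = 0.0475), and Slc22a8 from -0.03 through 0.27 to 0.35, with a mean of 0.21 ± 0.16 (adjusted p = 0.0337). Their calls were lost without most single arrays, and with the brightness left unrestored the values were -0.03 and 0.04. According to the RefSeq gene table no other protein-coding gene separates the pair on chromosome 19. The Slc22a6 and Slco1a1 spots were bright in brain and liver as well, and whether they report these genes was not tested.

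Slc22a12, the urate carrier of the brush border, was lower in DBA/2J kidney. It ran from -0.75 through -0.45 to -0.07, with a mean of -0.42 ± 0.27 (1.34-fold, adjusted p = 0.00262). All 6 arrays lay below 0, but without loess the mean was 0.37. The efflux pumps were not called: Abcg2 had a mean of 0.09 ± 0.32, and Abcc2 ran from -1.25 to 1.11 with a mean of -0.31 ± 0.87. Abcc2 had the widest spread of the group and no steady sign, 2 arrays above 0 and 4 below.

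Of the 7 amino acid genes on the array, both light chains of the basolateral exchangers were called, in opposite directions. Slc7a7, the exporter of cationic amino acids, ran from 0.12 through 0.42 to 0.50, with a mean of 0.38 ± 0.14 (1.30-fold, adjusted p = 0.000951). The Slc7a7 spot stood at brightness percentile 39.7 in kidney, 26.4 in liver and 0.183 in brain. Slc7a8, the exchanger of neutral amino acids, ran from -0.81 through -0.17 to -0.10, with a mean of -0.28 ± 0.27 (adjusted p = 0.0245). Every array of Slc7a7 was above 0 and every array of Slc7a8 below, array 1 far below the others. Without array 1 the mean of Slc7a8 was -0.18 and not called. The Slc7a8 call was also lost without array 4 and with whole-array loess (-0.31, adjusted p = 0.0554). With the brightness left unrestored Slc7a8 stood at 0.14 (adjusted p = 0.219), so the opposite directions depended on the normalisation. The heavy chain Slc3a2, shared by Slc7a7 and Slc7a8, had a mean of 0.05 (adjusted p = 0.656).

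On the brush border side, the cystine carrier's heavy chain Slc3a1 had a mean of 0.15 (adjusted p = 0.127) and its light chain Slc7a9 0.08 (0.559). Slc6a19, the main neutral amino acid carrier, had 0.01 (0.902), and Slc1a1, the glutamate carrier, 0.03 (0.794). The 2 spots of Slc1a1 differed in sign, at -0.16 and 0.22. These 4 genes gave no call in kidney.

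The peptide carriers, which take up di- and tripeptides, were both on the low side. Slc15a2, the high-affinity carrier of the kidney, ran from -1.25 through -0.86 to -0.47, with a mean of -0.82 ± 0.29 (1.76-fold lower, adjusted p = 2.19e-05). All 6 arrays lay well below 0, and 0.95% of all features had a lower mean. Slc15a1, the low-affinity carrier better known from the gut, had a mean of -0.24 ± 0.32 (adjusted p = 0.0732) and was not called.

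Slc13a3, the basolateral high-affinity carrier of succinate and other dicarboxylates, had the highest kidney ratio. It ran from 0.30 through 0.61 to 0.91, with a mean of 0.63 ± 0.24 (1.55-fold, adjusted p = 8.84e-05). Every array was above 0, and 1.09% of all features had a higher mean. Its brush border relative Slc13a2, the citrate carrier, had a mean of 0.20 (adjusted p = 0.0675), and the sulphate carrier Slc13a1 -0.14 (0.19).

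Aqp1, the water channel of both membranes of the cell, ran from 0.21 through 0.37 to 0.55, with a mean of 0.37 ± 0.13 (1.29-fold, adjusted p = 0.000983), above 0 on every array. The sodium-proton exchanger Slc9a3 (-0.07, adjusted p = 0.533) and the basolateral bicarbonate carrier Slc4a4 (0.04, adjusted p = 0.802) were not called. Slc27a2, which takes up and activates long-chain fatty acids, ran from -0.47 through -0.31 to -0.05, with a mean of -0.28 ± 0.14 (1.22-fold lower, adjusted p = 0.00591). It was below 0 on every array, but 0.41 without loess.

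The endocytic receptors were not called. Lrp2, which encodes megalin, had a mean of 0.06 (adjusted p = 0.496), and its 2 spots had 0.23 (adjusted p = 0.0236, each spot tested by itself) and -0.11 (0.262). Cubn, which encodes cubilin, had -0.13 (adjusted p = 0.121). In whole kidney, fewer cells of a type and less RNA per cell cannot be told apart.

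**Figure D2:**
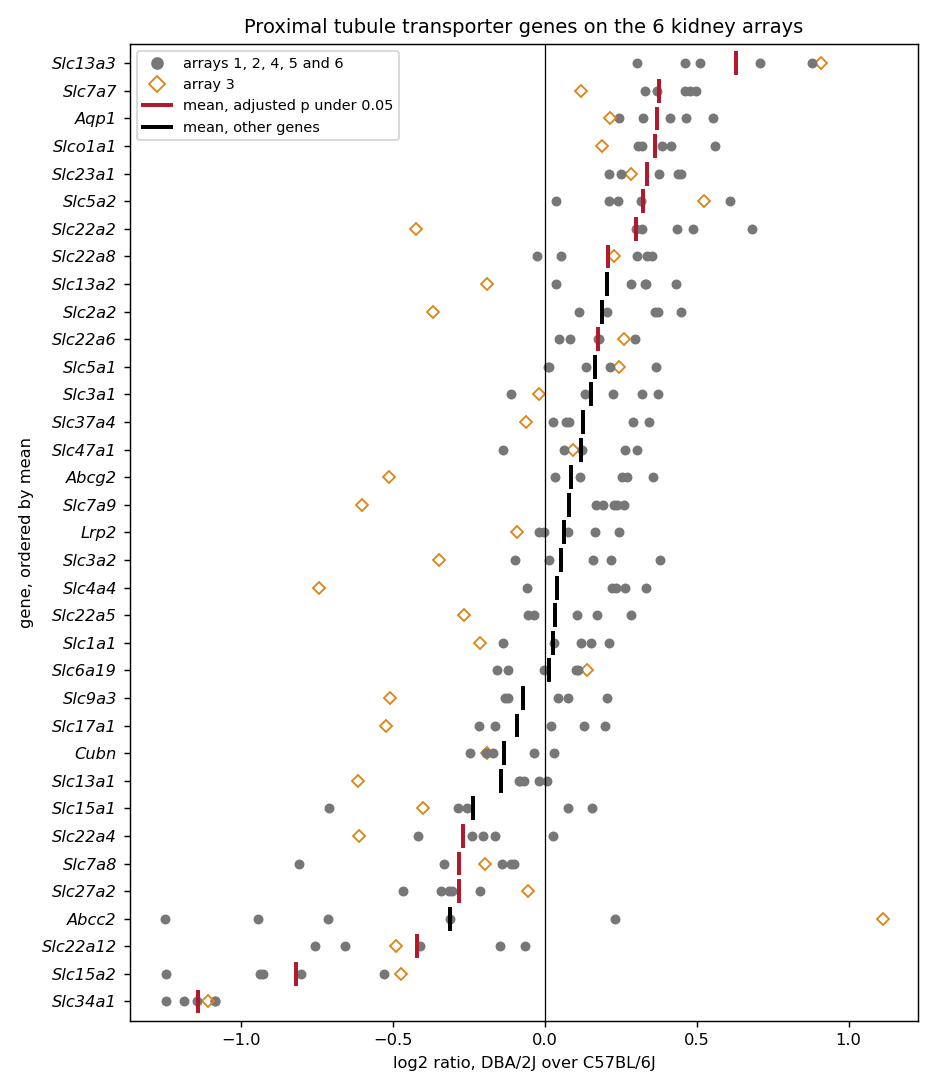
Log2 ratio of DBA/2J over C57BL/6J (horizontal axis) of the 35 genes on each of the 6 kidney arrays, ordered by their mean. Circles are arrays 1, 2, 4, 5 and 6, diamonds array 3, and vertical bars the mean, red where the adjusted p was under 0.05. Array 3 gives the lowest value of 18 genes.

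Array 3 of kidney stood apart for these genes. It gave the lowest value of 18 of the 35 (51.4%), against 19.0% of all features. The median of the 35 genes on it was -0.19, while the other 5 arrays had medians between 0.03 and 0.18, and 23 genes lay below 0 on it. Its mean correlation with the other kidney arrays over all features was 0.543, below the 0.601 to 0.656 of the others. The labels set array 3 apart in no way.

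Without array 3 the calls were 11 higher and 6 lower, and the median of the genes was 0.13. Of all 20218 features 3513 were then higher and 3491 lower, beside 3661 and 3671 with all kidney arrays. Slc22a4, Slc22a6 and Slc22a8 were then not called (adjusted p = 0.0601, 0.0994 and 0.0602). Slc2a2 (0.30), Abcg2 (0.21), Slc7a9 (0.22), Slc13a2 (0.28) and Abcc2 (-0.60) were called instead. Slc22a2 moved to 0.45 (adjusted p = 0.000807). Slc34a1, Slc15a2 and Slc13a3 stood at -1.15, -0.89 and 0.57.

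**Figure D3:**
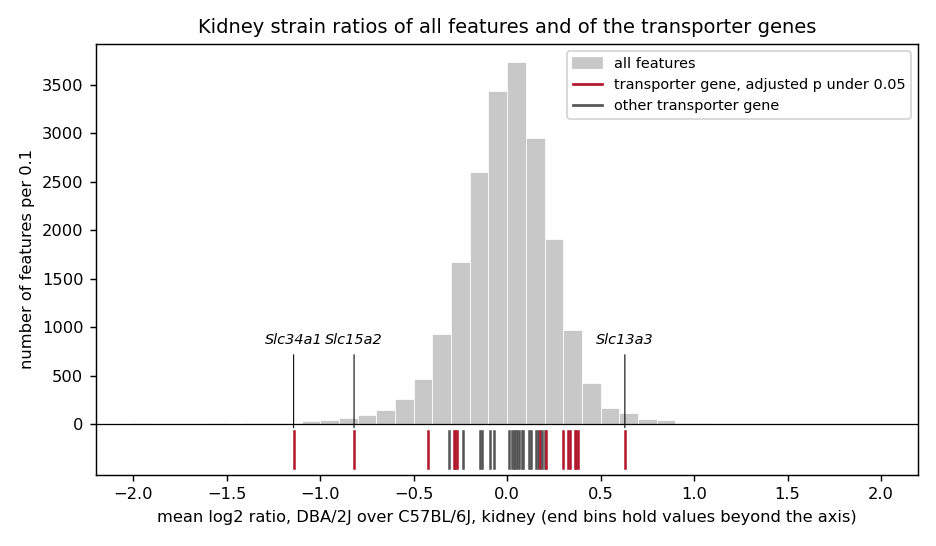
Number of features (vertical axis) by mean log2 kidney ratio in bins of 0.1, the end bins holding values beyond the axis, for all 20218 features, with the means of the 35 genes as ticks below, red where the adjusted p was under 0.05. Most of the genes lie inside the bulk of the distribution, and Slc34a1 (-1.14), Slc15a2 (-0.82) and Slc13a3 (0.63) lie in its tails.

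The normalisation decided part of these calls. The call held under all 8 alternative settings, and with any 1 kidney array left out, for 8 genes: Slc34a1, Slc5a2, Slc23a1, Slco1a1, Slc7a7, Slc15a2, Slc13a3 and Aqp1. Holding under these settings does not show that the Slc5a2 and Slco1a1 spots report those genes. Without loess the bright spots moved up. Slc5a2 then stood at 1.20, Slco1a1 at 1.23, Aqp1 at 1.06 and Slc23a1 at 0.79, each more than 1.5 times its value with loess. Slc13a3 and Slc15a2, from spots of middling brightness (percentile 59.0 and 52.3), stood at 0.60 and -0.74 there. Ratios as far from 0 as those of Slc5a2, Slc23a1, Slco1a1 and Aqp1 with loess also occurred among housekeeping genes. Of 9 on the array 2 were called higher and 5 lower in kidney (77.8%, against 36.3% of all features). Hprt had -0.45 (adjusted p = 0.00015), Ywhaz -0.37 (0.00173) and Actb 0.34 (0.000782). Without loess 5 of the 9 were called higher and 1 lower.

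**Figure D4:**
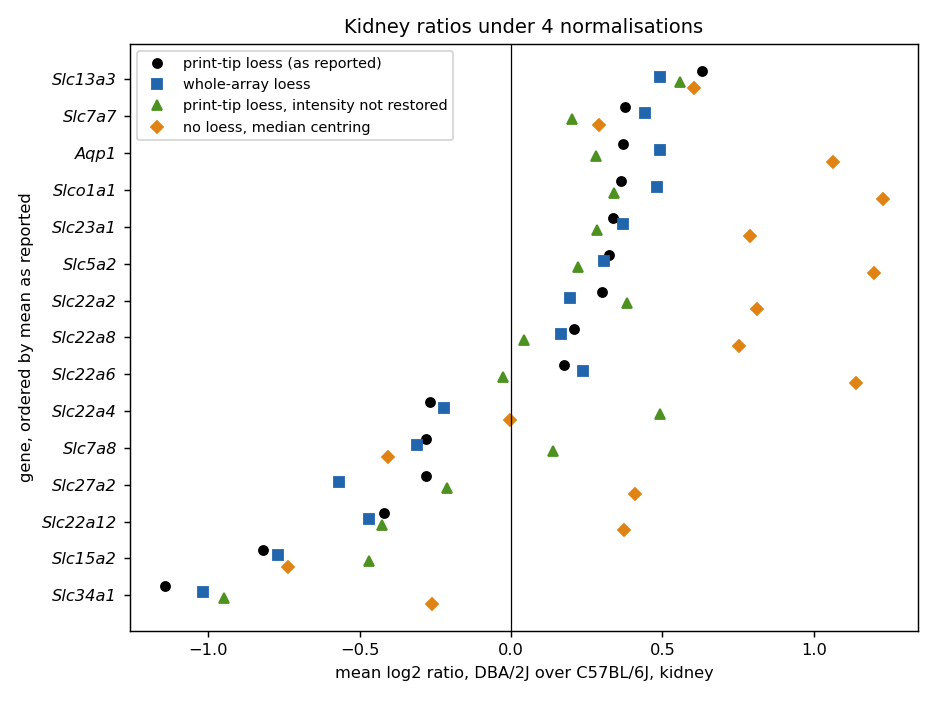
Mean log2 kidney ratio (horizontal axis) of the 15 called genes under 4 normalisations, one symbol for each. Slc13a3, Slc15a2 and Slc34a1 keep their side of 0 throughout, while Slc22a12 and Slc27a2 cross 0 without loess and Slc22a4, Slc22a6 and Slc7a8 cross it where the brightness is not restored.

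Brain and liver show whether a ratio was shared between tissues. In brain 6 of the 35 genes were called (17.1%, against 13.7% of all features), 2 higher (7.43% of all features) and 4 lower (6.26%). In liver 8 were called (22.9%, against 23.2%), 2 higher (11.0% of all features) and 6 lower (12.1%). The median of the 35 was -0.07 in both, next to 0.0038 (brain) and 0.0024 (liver) over all features. In both tissues the share called was thus near that of all features. Many of these spots are dim outside the kidney, so a ratio near 0 there is no measure of equal expression.

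In brain, Slc34a1 was again lower in DBA/2J. It ran from -0.79 through -0.55 to 0.10, with a mean of -0.50 ± 0.33 (adjusted p = 0.0108), from a spot at percentile 44.0. Abcc2, a drug and bilirubin conjugate pump, ran from 0.26 through 0.66 to 0.89, with a mean of 0.63 ± 0.22 (adjusted p = 0.00102), but from a spot at percentile 6.69. Slc17a1 ran from -0.12 through 0.53 to 0.85, with a mean of 0.45 ± 0.35 (adjusted p = 0.0197), and its call was lost without any 1 of brain arrays 3, 4, 5 and 6. The Slc17a1 spot lay at percentile 95.8 in brain, 93.6 in kidney and 24.4 in liver, and whether it reports that gene was not tested.

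The other 3 brain calls were lower in DBA/2J. Slc13a1 ran from -0.76 through -0.36 to -0.04 (mean -0.38 ± 0.24, adjusted p = 0.0167). Slc3a2 ran from -0.44 through -0.31 to -0.08 (mean -0.28 ± 0.13, adjusted p = 0.0238). Slc4a4 ran from -0.47 through -0.23 to -0.02 (mean -0.26 ± 0.17, adjusted p = 0.0467). All 3 were below 0 on every array. Slc13a1 came from a spot at percentile 9.63 and stood at -0.88 without loess and -0.68 with whole-array loess, and its call was lost without brain array 4. The calls of Slc3a2 and Slc4a4 were lost without loess, and without 3 and 5 of the 6 brain arrays in turn.

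In liver the lowest ratio belonged to Slc27a2, the fatty acid carrier, whose spot was bright there (percentile 97.9). It ran from -1.22 through -0.64 to -0.39, with a mean of -0.73 ± 0.30 (1.66-fold lower, adjusted p = 0.000493). Every array was below 0 in liver and in kidney, but the liver value was -0.14 with whole-array loess and -0.08 without loess, neither of them called. Slc37a4, which feeds glucose-6-phosphatase and so glucose release by the liver, ran from -0.39 through -0.27 to -0.09 (mean -0.27 ± 0.10, adjusted p = 0.0123).

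Slc22a12 ran from -0.35 through -0.29 to -0.13 in liver (mean -0.26 ± 0.08, adjusted p = 0.0119), and Slc15a1 from -0.39 through -0.24 to -0.07 (mean -0.24 ± 0.11, adjusted p = 0.0208). Slc22a6 ran from -0.44 through -0.22 to -0.04 (mean -0.25 ± 0.15, adjusted p = 0.0243), and Abcg2 from -0.38 through -0.21 to -0.05 (mean -0.22 ± 0.15, adjusted p = 0.0396). All 4 were below 0 on every liver array. The higher calls were Slc7a7, from 0.06 through 0.22 to 0.54 (mean 0.25 ± 0.16, adjusted p = 0.0274), and Slc6a19, from -0.04 through 0.27 to 0.68 (mean 0.28 ± 0.27, adjusted p = 0.0417). Slc7a7 was above 0 on every liver array as on every kidney array. Only the liver calls of Slc37a4 and Slc22a12 held under all the alternative settings and with any 1 liver array left out. Without loess Slc22a6 (-0.12, adjusted p = 0.483), Abcg2 (-0.12, adjusted p = 0.437) and Slc7a7 (0.23, adjusted p = 0.083) were not called. With whole-array loess Slc22a6 (-0.20, adjusted p = 0.0928), Abcg2 (-0.19, adjusted p = 0.131) and Slc6a19 (0.23, adjusted p = 0.0946) were not called. The calls of these 4 genes were each lost without any 1 of 4 of the 6 liver arrays. That of Slc15a1 was lost without array 3 or array 4.

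The difference between tissues was tested in 1 limma fit of all 18 arrays. The kidney ratio differed from the brain ratio for 12 genes (34.3%, against 18.6% of all features), 7 of them higher in kidney (8.53% of all features) and 5 lower (10.0%). It differed from the liver ratio for 8 genes (22.9%, against 14.4%), 6 higher (8.06%) and 2 lower (6.33%). Both comparisons share the kidney arrays. Slc34a1, Slc5a2, Slc15a2, Slc13a3 and Aqp1 passed in both.

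**Figure D5:**
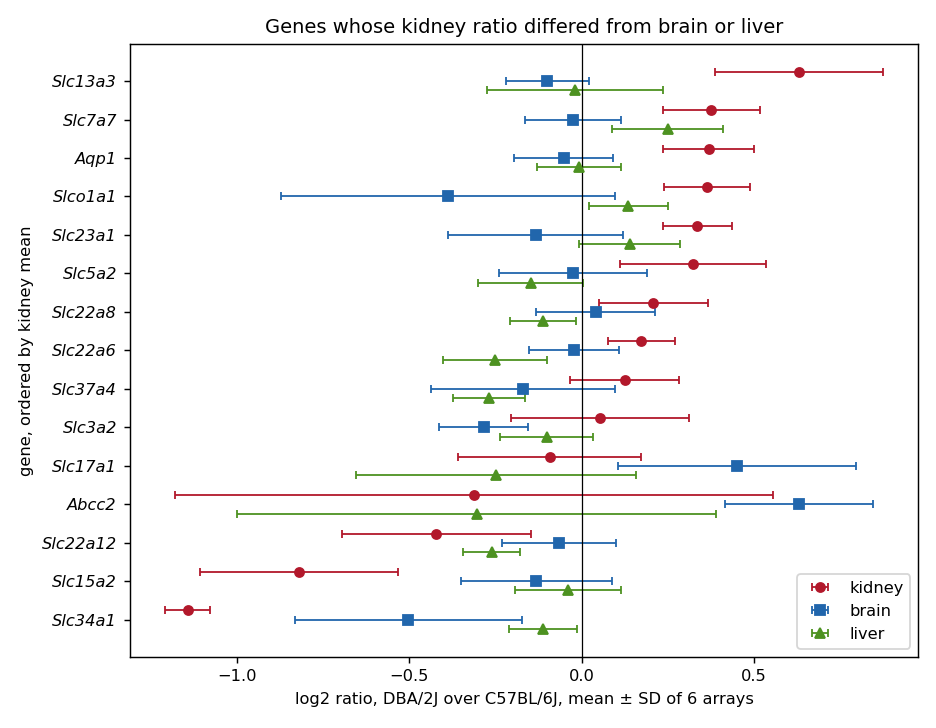
Mean log2 ratio of DBA/2J over C57BL/6J with its SD over 6 arrays (horizontal axis) in kidney (circles), brain (squares) and liver (triangles) for the 15 genes whose kidney ratio differed from that of brain or liver. The kidney value of Slc13a3 (0.63) lies to the right of both other tissues, and those of Slc15a2 (-0.82) and Slc34a1 (-1.14) to the left.

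The kidney ratio of Slc34a1 was lower than the brain ratio by -0.64 ± 0.12 (SE, adjusted p = 0.000488) and than the liver ratio by -1.03 ± 0.12 (adjusted p = 8.29e-07). No kidney array reached the lowest brain array (-0.79), and the liver arrays lay between -0.23 and 0.00. Without loess these differences were 0.16 and -0.26, neither of them called. For Slc15a2 the differences were -0.69 ± 0.12 (adjusted p = 0.000495) and -0.78 ± 0.12 (adjusted p = 9.69e-05), and the highest kidney array (-0.47) lay below the lowest of brain (-0.42) and of liver (-0.22). For Slc13a3 they were 0.73 ± 0.12 (adjusted p = 0.000199) and 0.65 ± 0.12 (adjusted p = 0.000552). Its kidney arrays (0.30 to 0.91) lay above all brain arrays (-0.22 to 0.13), while 1 liver array, at 0.42, lay among them.

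Aqp1 and Slc5a2 were higher in kidney than elsewhere by less. Aqp1 differed by 0.42 ± 0.09 from brain (adjusted p = 0.00303) and by 0.37 ± 0.09 from liver (adjusted p = 0.00763), and its kidney arrays lay above all brain arrays (-0.22 to 0.10) and liver arrays (-0.23 to 0.13). Slc5a2 differed by 0.35 ± 0.11 from brain (adjusted p = 0.0336) and by 0.47 ± 0.11 from liver (adjusted p = 0.0059). Its kidney arrays (0.04 to 0.61) overlapped those of brain (-0.36 to 0.27) and not those of liver (-0.41 to -0.02). Both Slc5a2 calls were lost with whole-array loess.

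Against brain alone, Slco1a1 differed by 0.75 ± 0.15 (adjusted p = 0.00133), with brain arrays between -1.31 and -0.01 below every kidney array. The Slco1a1 spot stood at percentile 93.1 in brain, and whether it reports that gene was not tested. Slc23a1 differed by 0.47 ± 0.11 (adjusted p = 0.00399) and Slc7a7 by 0.40 ± 0.10 (adjusted p = 0.00586), with 1 brain array of each, at 0.31 and 0.24, among the kidney arrays. The brain side of the Slc7a7 difference came from a spot at percentile 0.183. Slc3a2 differed by 0.34 ± 0.11 (adjusted p = 0.0331) and Slc22a12 by -0.36 ± 0.11 (adjusted p = 0.0283). Slc17a1 (-0.54 ± 0.17, adjusted p = 0.0282) and Abcc2 (-0.94 ± 0.30, adjusted p = 0.0314) passed through brain ratios above 0, and neither was called in kidney itself. Without loess Slc22a12 turned to 0.40 (adjusted p = 0.0291), and Slc17a1 (-0.16, adjusted p = 0.566) and Abcc2 (-0.48, adjusted p = 0.247) were not called. Slc7a7 was not called with the brightness left unrestored (0.21, adjusted p = 0.0934). Of 12 fits that each left out 1 array, the call was lost in 7 for Slc3a2, 7 for Abcc2, 5 for Slc17a1 and 4 for Slc22a12.

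Against liver alone, the neighbours Slc22a6 (0.43 ± 0.09, adjusted p = 0.00245) and Slc22a8 (0.32 ± 0.10, adjusted p = 0.0282) were higher in kidney. Slc22a6 had liver arrays between -0.44 and -0.04, all below its kidney arrays, and Slc22a8 had liver arrays between -0.27 and 0.02. With the brightness left unrestored neither was called (0.19, adjusted p = 0.166, and 0.19, adjusted p = 0.132). Slc22a8 was also lost with whole-array loess (0.37, adjusted p = 0.075). The Slc22a6 spot stood at percentile 98.8 in kidney and 98.9 in liver, and whether it reports that gene was not tested. Slc37a4 differed by 0.39 ± 0.11 (adjusted p = 0.0183), with liver arrays between -0.39 and -0.09 and kidney arrays between -0.06 and 0.34, and was not called with whole-array loess (0.32, adjusted p = 0.176). For Slc27a2, called lower in kidney and in liver, the differences of -0.03 from brain (adjusted p = 0.918) and 0.45 from liver (adjusted p = 0.108) were not called.

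Other genes of the proximal tubule, from lists chosen with results of these data known, were called in kidney in both directions. Of all features 36.3% were called in kidney, against 35.9% of the further transporters, 21.1% of the partners, 47.5% of the enzymes and 31.2% of the transcription factors. Of 39 further transporters on the array 7 were higher and 7 lower, and of 19 endocytosis and scaffold partners 3 were higher and 1 lower. Of 40 brush border and cytosolic enzymes 12 were higher and 7 lower, and of 16 transcription factors 2 were higher and 3 lower. Without loess 22 further transporters were higher and 7 lower, 12 partners higher and 3 lower, 32 enzymes higher and 2 lower, and 6 transcription factors higher and 2 lower. In that setting 6468 of all 20218 features were higher and 6645 lower. The medians of these lists lay between -0.03 and 0.06. The anion carrier Slc22a7 (-0.82 ± 0.28, adjusted p = 1.92e-05) was the gene of the transporter list with the most distant mean from 0, but had 0.07 without loess.

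Among the partners and regulators, Pth1r, the receptor of parathyroid hormone, which lowers phosphate reabsorption, had a kidney mean of -0.24 ± 0.11 (adjusted p = 0.0102) and 0.54 without loess. Slc9a3r2, a scaffold of brush border carriers, had 0.37 ± 0.12 (adjusted p = 0.000792). Vdr, the vitamin D receptor, had 0.44 ± 0.23 (adjusted p = 0.00106), and Hnf4a, a transcription factor of the proximal tubule, 0.29 ± 0.14 (adjusted p = 0.00523). Without loess the kidney means of Slc9a3r2, Vdr and Hnf4a stood at 1.32, 0.75 and 0.63. Of the regulators called lower, Ppargc1a, a transcriptional coactivator of mitochondrial genes, had -0.36 ± 0.31 (adjusted p = 0.0107) and 0.18 without loess. Hnf4g, a relative of Hnf4a, had -0.36 ± 0.24 (adjusted p = 0.00502) and -0.45 without loess.

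Of 75 markers of other kidney cells and of immune cells, 28 were called lower and 5 higher in DBA/2J, against 18.2% lower and 18.1% higher of all features. Without loess the split was 20 lower and 21 higher, so the split over the 75 markers together depended on the normalisation. Of all 20218 features 6645 were then lower and 6468 higher. Of 11 endothelial markers 6 were lower (median -0.23), of 17 collecting duct markers 7 were lower and 3 higher, and of 11 stromal markers 5 were lower and 1 higher. Of 7 markers each of the thick ascending limb and of the distal and connecting tubule 3 were lower, of 10 podocyte markers 2 were lower and 1 higher, and of 12 immune markers 2 were lower. Without loess the calls were 3 lower and 1 higher for endothelium, 5 lower and 7 higher for the collecting duct, and 2 lower and 4 higher for stroma. They were 2 lower and 2 higher for the thick ascending limb, 1 lower and 3 higher for the distal and connecting tubule, 1 lower and 2 higher for podocytes, and 6 lower and 2 higher for immune cells. Of 12 genes known to differ between the sexes in kidney (Slco1a1 and Slc22a2 among them), 3 were higher and 4 lower. Together that is 58.3%, against 36.3% of all features, and without loess 9 were higher and 3 lower. These counts do not separate genes higher in males from genes higher in females. The most distant from 0 in kidney were Cyp4a12a (1.90 ± 0.73), Acsm3 (-1.32 ± 0.20) and Cyp4a14 (-0.66 ± 0.20). In liver these genes had 0.79, -0.43 and -0.32. The sources used here do not name the sex of the mice, and its part in these ratios was not tested. The part of the cell markers in the transporter ratios was not tested either.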

How the data were processed

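Each of the 18 arrays has 23040 spots, deposited as log2 ratios. Per the labels, the authors quantified spots with Spot and normalised the log2 ratios by print-tip lowess with limma. The deposited values were nevertheless all log2 of a ratio of 2 whole numbers (tolerance 1e-12), with array medians from -1.65 to 0.16, and were treated as unnormalised. For versions, background correction and genome build, the sources used here give nothing. The number of arrays limits the precision. 1275 spots at 0 on every array were left out, 21765 used; 16642 had 1 gene symbol, 134 several and 4989 none.

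Intensities were recovered from the ratios by continued fractions up to 65535, and the common factor, which a ratio does not hold, was estimated from the other arrays of the tissue. Each array was normalised by print-tip loess against the tissue's mean intensity (48 blocks of 480 spots, span 0.3, 4 iterations), spots of a gene were averaged, and limma 3.58.1 (R 4.3.3) gave the mean against 0 for each tissue and the contrasts, with Benjamini-Hochberg adjustment. The fit was tested on simulated data for each tissue: more of the calls made there were false than the threshold allows, most of all for kidney, and many of the smallest changes put in were missed.

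The genes and lists were chosen with earlier results of these data known. Every gene on the array is accounted for, and values by array are given for those called in a tissue or a contrast. Of other lists at most 4 genes qualify, those called in kidney with the largest mean. Promoters are shown for the 2 lowest and 2 highest called genes with 1 entry. Alternatives were 3 other normalisations, scaling, 2 filters, single spots, another variance model, the replicate number as a block and each array left out.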

Additional observations from a re-analysis of the deposited data

Results flagged for a closer look

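On 10 of 105 gene and tissue combinations 1 array stood far from the other 5, by a gap above Dixon's critical share of the whole range for 6 samples, where chance gives about 1 in 20. In kidney 6 genes were marked, 5 of them by array 3. There Slc22a2 had -0.42 on array 3 (others 0.30 to 0.68), Abcg2 -0.51 (0.03 to 0.36), Slc7a9 -0.60 (0.17 to 0.26), Slc13a1 -0.61 (-0.08 to 0.01) and Slc4a4 -0.74 (-0.06 to 0.33). Slc7a8 had -0.81 on kidney array 1 (others -0.33 to -0.10). In brain Slc37a4 had -0.71 on array 1 (others -0.12 to 0.00), Slc9a3 0.21 on array 1 (-0.37 to -0.26) and Slc13a3 0.13 on array 3 (-0.22 to -0.10). In liver Abcc2 had 1.07 on array 2 (others -0.77 to -0.39). The cause was not tested.

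The kidney ratio differed from that of brain for 12 genes and from that of liver for 8, by limma over all 18 arrays. Against brain the differences were -0.94 for Abcc2, -0.69 for Slc15a2, -0.64 for Slc34a1, -0.54 for Slc17a1, -0.36 for Slc22a12, 0.34 for Slc3a2, 0.35 for Slc5a2, 0.40 for Slc7a7, 0.42 for Aqp1, 0.47 for Slc23a1, 0.73 for Slc13a3 and 0.75 for Slco1a1. Against liver they were -1.03 for Slc34a1, -0.78 for Slc15a2, 0.32 for Slc22a8, 0.37 for Aqp1, 0.39 for Slc37a4, 0.43 for Slc22a6, 0.47 for Slc5a2 and 0.65 for Slc13a3. On the log2 scale the most distant from 0 are the kidney differences of Slc34a1 against liver and of Abcc2 against brain, the latter with a kidney SD of 0.87.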

How the results depend on the processing

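Of 2874 values of single genes under the alternatives, 2603 kept their result and 19 reversed. A called value kept its result where its direction and its side of the threshold held. An uncalled value did so where it stayed uncalled and moved by less than the SD over arrays (in a contrast, the SE). Normalisation moved most. Without loess the kidney calls over all features rose from 7332 to 13113, the transporter genes called higher from 9 to 27 and their median to 0.49. The contrast against brain then gave 7113 features, 25 genes higher, 1 lower and a median of 0.68, and that against liver 9288, 24, 1 and 0.58. The liver median was -0.11 without loess and -0.11 with whole-array loess, which left 1 liver gene higher and 3 genes higher against liver. Reversed without loess were, in kidney, Slc17a1 (0.44), Slc22a12 (0.37), Slc13a1 (0.38), Slc27a2 (0.41) and Cubn (0.49), in brain Slc7a9 (-0.30), against brain Slc34a1 (0.16), Slc22a12 (0.40), Slc27a2 (0.74) and Cubn (0.67), and against liver Slc5a1 (0.45), Slc22a5 (0.42), Slc22a12 (0.62) and Cubn (0.66). With the brightness left unrestored, Slc22a4 reversed in kidney (0.49), against brain (0.56) and against liver (0.55), as did Slc22a6 (-0.027) and Slc7a8 (0.14) in kidney. That setting gave 6661 features against brain, 6486 against liver and 2 genes lower in brain. Leaving out dim features left fewer to test: 4439 called in kidney, 1764 in brain, and 1 gene higher in brain, 1 higher in liver and 1 lower against liver. The other causes were not tested. In brain the share of higher among all calls went from 54.3% to 41.3% with an intensity trend and robust variance.

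With 1 array left out, calls over all features ranged from 5797 to 7004 in kidney, 1295 to 3388 in brain, 3008 to 4713 in liver, 2812 to 4264 against brain and 2256 to 2963 against liver. Genes called higher and lower ranged from 6 to 11 and 5 to 6 in kidney, 1 to 2 and 1 to 5 in brain, 0 to 2 and 3 to 7 in liver, 5 to 10 and 2 to 5 against brain, and 5 to 8 and 2 to 2 against liver. In liver the count of 0 by limma stood beside 2 or 3 genes at an unadjusted p under 0.05. The medians ranged from 0.03 to 0.13 in kidney, -0.08 to -0.07 in brain, -0.091 to -0.058 in liver, 0.14 to 0.20 against brain and 0.10 to 0.20 against liver.

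Whether replicate numbers pair arrays across tissues is not stated. Deviations of same-numbered arrays correlated by -0.0754 to 0.117 between kidney and brain and by -0.115 to 0.161 between kidney and liver. In each of these comparisons 3 of 6 kidney arrays were closest to their own number, which does not settle whether the arrays are paired. With the replicate number as a block, 3469 features differed against brain and 2684 against liver, 6 genes were higher and 5 lower against brain and 6 and 2 against liver, and Slc5a2 against brain lost its call (0.35, adjusted p = 0.0545).

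The brightness behind the loess was estimated from the ratios and not measured, all arrays of a tissue share 1 pair of pools, and the dyes were not swapped. An uncalled ratio does not show equal expression, least of all for the spots that are dim in brain and liver.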
